A study of Mus musculus with 5 samples.

Results

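The respiratory chain genes of the deposited expression table were taken as every protein-coding gene of the mitochondrial genome together with the nuclear genes whose symbols name subunits of complexes I to V (Nduf a, b, c, s and v, Sdh, Uqcr, Cyc1, Cox4 to Cox8 and Atp5). This gave 99 of the 54699 genes in the table, 13 of them encoded in mitochondrial DNA and 86 in the nucleus. The symbol rule leaves out Ndufab1 and the Ndufaf assembly factors, and it holds Ndufa4, a subunit now placed in complex IV and counted there. RNA had been sequenced from B16F10, a mouse melanoma line that makes pigment, in 5 cultures that had all received a lentivirus and grown in DMEM with fetal bovine serum. In the expression arm, cells with forced expression of Myod1 (the muscle regulator MyoD) or of Pparg (the adipocyte receptor PPAR gamma) were harvested on day 8 beside cells with the empty expression vector. In the knockdown arm, cells with a short-hairpin RNA against Setdb1, a histone H3 lysine 9 methyltransferase, were harvested on day 7 beside cells with the empty knockdown vector. The labels name 1 hairpin design, no clone and no promoter, and they state that the cells were collected once a marked change of phenotype had occurred.

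Oxidative phosphorylation couples the passage of electrons from NADH and succinate through complexes I to IV to the pumping of protons, and complex V, the ATP synthase, uses the returning protons to make ATP. Mitochondrial DNA encodes a few membrane core subunits of complexes I, III, IV and V, while the nucleus encodes all other subunits, including the whole of complex II, so most complexes are built from the products of both genomes. In heart and skeletal muscle 3 small subunits of cytochrome c oxidase, complex IV, are replaced by muscle isoforms named Cox6a2, Cox7a1 and Cox8b.

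Each group is a single library, so no difference between groups has a replicate check, no SD or p-value can be given, and intervals cover counting error only. The libraries held between 16214802 and 18300670 reads assigned to genes. Levels are FPKM, that is, reads per kilobase of gene length and of the authors' library size. Levels of different genes can be compared only as far as that length matches the mRNA. For Atp5g3 it was 2181 bases, where the longest annotated transcript has 862. A difference is the log2 ratio of (FPKM + 1) between a treated library and the control library of its arm, and 2-fold in either direction was used as the limit. Both expression groups are read against the same control library. The control libraries of the arms differ in vector and day, which cannot be told apart, and the ratio of the empty knockdown vector to the empty expression vector was computed as the only available background. Myod1 stood at 260.1 FPKM and Pparg at 44.4 FPKM in the library named for each and at 0 in all others, and Setdb1 stood at 0.867 FPKM with its knockdown against 9.82 in its control. All 7 melanocyte markers examined were detected in every library, and their summed level was 3110 FPKM with Myod1 expression, 2195 with Pparg expression, 7583 with the empty expression vector, 8985 with Setdb1 knockdown and 8222 with the empty knockdown vector. The 6 skeletal muscle markers summed to 21093 FPKM with Myod1 expression and to between 5.16 and 14.9 elsewhere, and the 5 adipocyte markers to 155 FPKM with Pparg expression, nearly all of it Fabp4, with Lpl at 0 throughout. Sums of leukocyte, erythroid, fibroblast and endothelial markers were at most 2.43 FPKM in any library, with Cd3e and Hbb-bs at 0 in all 5.

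Of the 99 genes, 93 reached 1 FPKM in at least 1 library and were compared. The 6 others were the tissue isoforms Ndufa4l2, Cox4i2, Cox6b2, Cox7b2 and Cox8c, each with at most 6 reads in any library, and a second entry for Atp5o without reads. Cox7a1 and Cox8b passed this filter only through the Myod1 expression library, so both had to differ there. The nuclear subunits stood higher with Myod1 expression: 60 of the 80 compared were at least 2-fold higher and none was 2-fold lower, at a median log2 ratio of 1.41, where 14% of all 12842 genes compared were 2-fold higher and the median gene stood at 0.02. With Pparg expression 4 of 80 were at least 2-fold higher, beside 4.22% of all genes, at a median of 0.47. With Setdb1 knockdown 8 were higher and 1 was lower, beside 9.34% and 10.3% of all genes, at a median of 0.40. These 2 shares of nuclear subunits past the limit, 5% and 10%, are near those of all genes, and 2 of the 4 and 4 of the 8 higher ones passed the limit against both controls. Between the controls no nuclear subunit passed the limit, beside 1.23% of all genes higher and 1.44% lower, and the median was -0.07. The 13 mitochondrially encoded genes stood elsewhere, at a median of 0.54 with Myod1 expression, where 1 gene was higher and 1 was lower. Their median was -0.70 with Pparg expression, where 1 gene was higher and 3 were lower (none of these 3 against both controls), and -1.31 with Setdb1 knockdown, where none was higher and 9 were lower. Of all genes, 7.55% were at least 2-fold lower with Myod1 expression and 2.3% with Pparg expression. Counted in either direction over both genomes, 62 of the 93 members passed the limit with Myod1 expression, beside 21.6% of all genes. The count was 8 with Pparg expression, beside 6.52% of all genes, 18 with Setdb1 knockdown, beside 19.7%, and 2 between the controls, beside 2.67%. In these bulk libraries fewer cells of a type and less RNA per cell cannot be told apart. The nuclear count and the muscle marker sum given above were both highest with Myod1 expression. The melanocyte marker sum did not follow the nuclear counts. It was lowest with Pparg expression (2195 FPKM, against 3110 with Myod1 expression), where 4 of 80 nuclear subunits were at least 2-fold higher. The part of the marker sums in these counts was not tested.

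**Figure D1:**
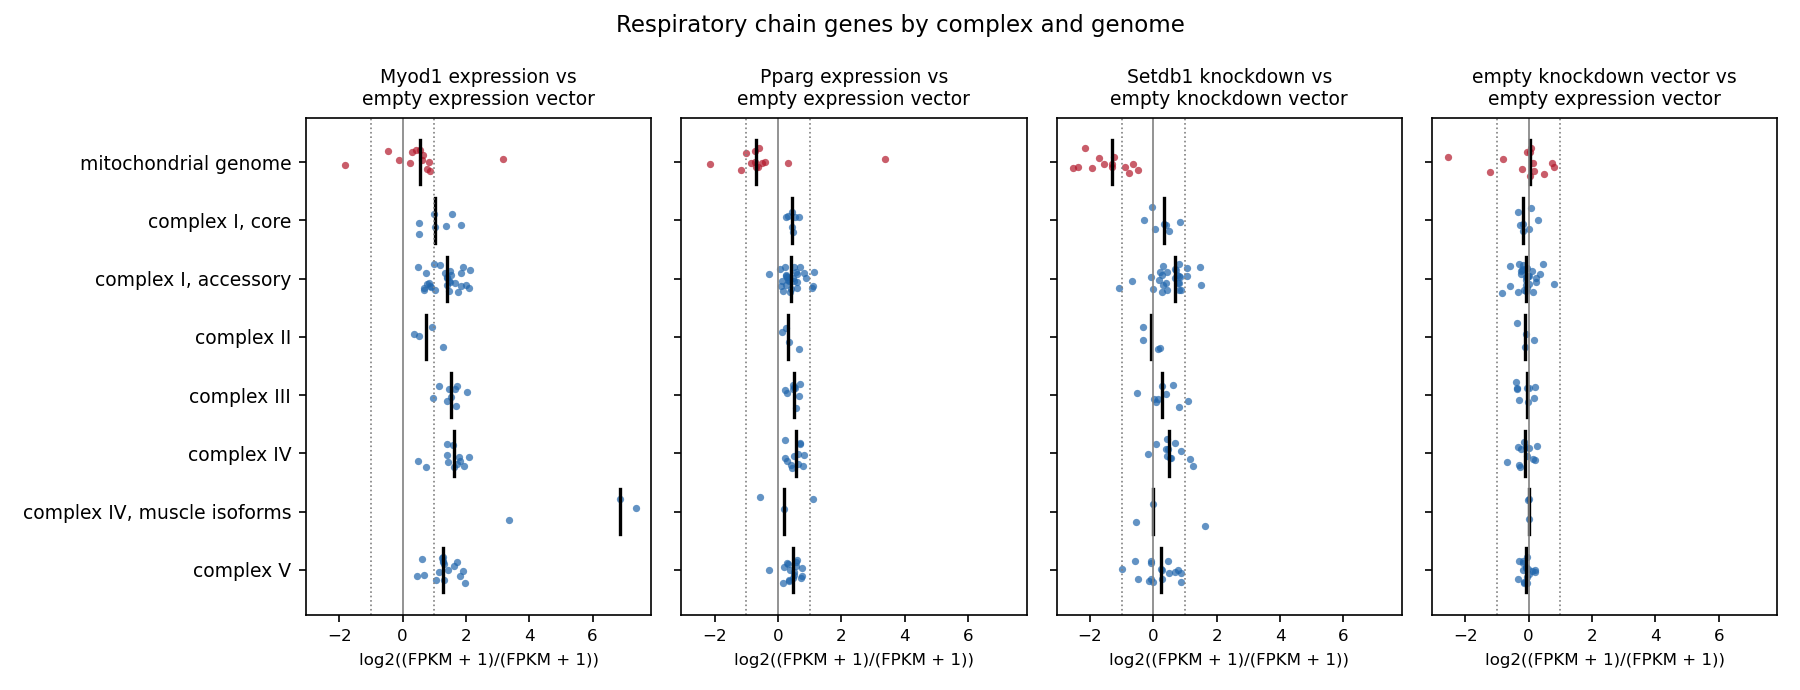
Log2 ratio of (FPKM + 1) on the horizontal axis for each respiratory chain gene compared (1 point per gene, 93 genes), in rows by genome and complex, in 4 panels for Myod1 expression, Pparg expression and Setdb1 knockdown against their controls and for one control against the other; vertical bars are medians and dotted lines mark 2-fold. Most nuclear subunits lie to the right of the 2-fold line with Myod1 expression, and the mitochondrially encoded genes lie to the left of 0 with Setdb1 knockdown.

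The Myod1 comparison depends on how libraries are scaled. The deposited FPKM sum to 420545 with Myod1 expression and to between 297582 and 326960 elsewhere. Division of each library by its summed FPKM moved the median of all genes by -0.33, scaling to the 75th percentile by -0.12 and scaling to reads outside the mitochondrial genome by -0.11. After these scalings 45, 53 and 54 of the 80 nuclear subunits stood past the limit, and 68 did against the other control library, with none at least 2-fold lower in any of these. Of all genes, 12.1%, 11.6% and 11.6% were at least 2-fold higher after these scalings and 15.1% against the other control library. In the same order 20.6%, 10.4%, 9.97% and 7.51% of all genes were at least 2-fold lower. Every one of the 77 nuclear subunits other than the muscle isoforms had a ratio above 0 with Myod1 expression, and for 75 of the 77 the Myod1 expression library held the highest of the 5 levels. The number above 0 was 76 of 77 after division by the summed FPKM, where Sdha stood at -0.03, and 76 against the other control library, where Ndufa12 stood at -0.12. Their median level was 169 FPKM there, against 82.6 with Pparg expression, 65.6 with the empty expression vector, 94.98 with Setdb1 knockdown and 62.5 with the empty knockdown vector. Atp5b, the catalytic beta subunit of the ATP synthase, was the most abundant of them in 4 libraries, at 1022 FPKM with Myod1 expression, and Cox6a1 was in the Setdb1 knockdown library, at 432 FPKM. Ratios above 0 were not particular to Myod1 expression. For Pparg expression 75 of the 77 stood above 0, also after each scaling and against the other control library. For Setdb1 knockdown 60 did, and 55 to 61 after the scalings. Between the controls 22 did, and 25 to 39 after the scalings. Of all 12842 genes, 5878 stood above 0 for Pparg expression, 6461 for the knockdown and 5998 between the controls.

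Complex I takes electrons from NADH. Its 7 nuclear core subunits, which carry the flavin and the iron-sulfur clusters, had a median log2 ratio of 1.04 with Myod1 expression, with 5 of 7 at least 2-fold higher, and of 0.45 with Pparg expression and 0.33 with Setdb1 knockdown, with none past the limit in either. Ndufs7, which holds the last iron-sulfur cluster before ubiquinone, stood at 192 FPKM with Myod1 expression, 73.5 with Pparg expression, 52.9 with the empty expression vector, 78.9 with Setdb1 knockdown and 44.0 with the empty knockdown vector. The Myod1 expression library stood well above the rest for Ndufs7, and its log2 ratios were 1.84 for Myod1 expression, 0.47 for Pparg expression and 0.83 for Setdb1 knockdown. Ndufs1, the largest core subunit, spread much less, at 33.2 FPKM with Myod1 expression, 26.9 with Pparg expression, 22.6 with the empty expression vector, 15.9 with Setdb1 knockdown and 19.9 with the empty knockdown vector.

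The 28 accessory subunits of complex I surround the core and serve its assembly and stability. Their median log2 ratios were 1.41 with Myod1 expression (19 at least 2-fold higher), 0.40 with Pparg expression (3 higher) and 0.69 with Setdb1 knockdown (4 higher and 1 lower). Ndufc1, a small subunit, had the highest ratio of the nuclear complex I subunits with Myod1 expression at 2.13 (93.6 against 20.6 FPKM), and Ndufa9, which sits near the ubiquinone site, had the lowest at 0.50 (153 against 108 FPKM).

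With Pparg expression the accessory subunits past the limit were Ndufb6, Ndufa7 and Ndufb2. Ndufb6 stood at 164 FPKM against 73.2 in its control, a log2 ratio of 1.15, and Ndufa7 at 71.0 against 32.6, a log2 ratio of 1.10. Ndufb2 had 539 reads against 172. Over the gene length of 5628 bases used for it, this gave 5.00 against 1.87 FPKM, a log2 ratio of 1.06. Against the other control library Ndufa7 kept 1.10, while Ndufb6 stood at 0.93 and Ndufb2 at 0.71, both inside the limit. Ndufa3 had the lowest ratio of the nuclear complex I subunits with Pparg expression, -0.29, which became 0.29 against the other control.

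With Setdb1 knockdown 25 of the 28 accessory subunits had a ratio above 0 and 3 had a ratio below 0. Ndufa13, also known as GRIM-19, stood at 185 FPKM with Myod1 expression, 69.2 with Pparg expression, 45.5 with the empty expression vector, 126 with Setdb1 knockdown and 43.3 with the empty knockdown vector, so the knockdown library was second to the Myod1 expression library. Its log2 ratio with Setdb1 knockdown was 1.52, and 1.44 against the other control. Ndufb2 (1.07 and 1.43) also passed the limit against both controls, whereas Ndufa1 (1.47 and 0.89) and Ndufa2 (1.06 and 0.82) did so against the arm's own control only.

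Ndufa6, an accessory subunit of the LYR motif family, went the other way, at 90.2 FPKM with Myod1 expression, 24.0 with Pparg expression, 20.5 with the empty expression vector, 8.70 with Setdb1 knockdown and 19.5 with the empty knockdown vector. The Setdb1 knockdown library was the lowest of the 5 for Ndufa6 and the Myod1 expression library the highest, with log2 ratios of 2.09 for Myod1 expression, 0.22 for Pparg expression and -1.08 for Setdb1 knockdown and of -1.15 for the knockdown against the other control. Between the controls the widest accessory subunits were Ndufa12 at 0.79 and Ndufv3 at -0.84, which shows how far a ratio can lie from 0 without a targeted gene.

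Complex II, succinate dehydrogenase, was the complex with the smallest ratios under Myod1 expression, with a median of 0.73 and 1 of its 4 genes past the limit. Sdhd, a membrane anchor, was that gene, at 377 FPKM with Myod1 expression, 200.1 with Pparg expression, 156 with the empty expression vector, 139 with Setdb1 knockdown and 175 with the empty knockdown vector, with a log2 ratio of 1.27 for Myod1 expression. Sdha, the flavoprotein that oxidises succinate, stood at 126 FPKM with Myod1 expression, 108 with Pparg expression, 98.2 with the empty expression vector, 60.8 with Setdb1 knockdown and 75.6 with the empty knockdown vector, and its ratio of 0.36 was the lowest of all 80 nuclear subunits with Myod1 expression. For complex II the Setdb1 knockdown median was -0.08 and the Pparg expression median 0.31, with no member past the limit in either. Sdhc, the other membrane anchor, had the highest ratio of the 4 in both, 0.68 with Pparg expression and 0.20 with the knockdown.

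Complex III passes electrons from ubiquinol to cytochrome c. With Myod1 expression 8 of its 9 nuclear genes were at least 2-fold higher, at a median of 1.54, and the ninth, the core protein gene Uqcrc1, stood just inside the limit at 0.97. Uqcr11, the smallest subunit, stood at 407 FPKM with Myod1 expression, 159 with Pparg expression, 99.5 with the empty expression vector, 168 with Setdb1 knockdown and 77.5 with the empty knockdown vector. It was highest with Myod1 expression, its log2 ratios were 2.02 for Myod1 expression, 0.67 for Pparg expression and 1.11 for Setdb1 knockdown, and the knockdown ratio became 0.75 against the other control. Cyc1, the cytochrome c1 that hands electrons to cytochrome c, stood at 579 FPKM with Myod1 expression, 281 with Pparg expression, 198 with the empty expression vector, 141 with Setdb1 knockdown and 201 with the empty knockdown vector. Cyc1 was lowest in the Setdb1 knockdown library, at a log2 ratio of -0.51 that did not reach the limit, and at 1.54 with Myod1 expression. The complex III medians were 0.50 with Pparg expression and 0.26 with Setdb1 knockdown. With Pparg expression its nuclear genes ranged from 0.22 for Uqcrb to 0.71 for Uqcrh, the hinge protein.

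Complex IV reduces oxygen to water. Without the tissue isoforms its 12 nuclear genes had the highest median of the complexes with Myod1 expression, 1.62, and 10 of 12 were at least 2-fold higher. Against the other control library the nuclear genes of complex III had the higher median, 1.76 against 1.71. Cox4i1, the largest nuclear subunit of complex IV, stood at 764 FPKM with Myod1 expression, 503 with Pparg expression, 282 with the empty expression vector, 309 with Setdb1 knockdown and 230.2 with the empty knockdown vector, which puts both expression libraries above the 3 others. Its log2 ratios were 1.44 for Myod1 expression, 0.83 for Pparg expression and 0.43 for Setdb1 knockdown. Cox7c, a small membrane subunit, stood at 184 FPKM with Myod1 expression, 68.2 with Pparg expression, 41.9 with the empty expression vector, 94.98 with Setdb1 knockdown and 39.3 with the empty knockdown vector and had the highest ratio of the 12 with Myod1 expression, 2.11, and with Setdb1 knockdown, 1.25. Cox5b, which binds zinc, was the other of the 12 past the limit with the knockdown, at 221 against 99.1 FPKM, a log2 ratio of 1.15 that became 0.99 against the other control. Cox8a had the lowest ratio with Myod1 expression, 0.48, and Cox6a1 the next lowest, 0.73, which became 1.40 against the other control. Cox5a had the lowest ratio of the 12 with the knockdown, -0.18. With Pparg expression none of the 12 passed the limit, at a median of 0.57.

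Complex V had 14 of its 17 nuclear genes at least 2-fold higher with Myod1 expression, at a median of 1.29, and none of the 17 past the limit with Pparg expression (0.49) or Setdb1 knockdown (0.23). Atp5b stood at 1022 FPKM with Myod1 expression, 809.9 with Pparg expression, 641 with the empty expression vector, 376 with Setdb1 knockdown and 567 with the empty knockdown vector, with log2 ratios of 0.67 for Myod1 expression, 0.34 for Pparg expression and -0.59 for Setdb1 knockdown. The knockdown library was thus the lowest for Atp5b. Atp5g1, Atp5g2 and Atp5g3 encode the same mature c subunit of the proton-driven ring from separate genes, and their proportions differed between libraries. Atp5g1 supplied 15.4% of their summed FPKM with Myod1 expression, 12.03% with Pparg expression, 7.76% with the empty expression vector, 10.3% with Setdb1 knockdown and 8.09% with the empty knockdown vector. Atp5g3 supplied 63.6%, 64.8%, 61.6% and 63.1% in the Myod1 expression, Pparg expression, empty expression vector and empty knockdown vector libraries, and 42.8% with Setdb1 knockdown, where Atp5g2 supplied 46.9%. These shares depend on the gene lengths used, 4912 bases for Atp5g1 and 2181 for Atp5g3. By reads, Atp5g1 had 8556 and Atp5g3 15728 with Myod1 expression. Atp5g3 itself stood at 107 FPKM with the knockdown against 211 in its control, a log2 ratio of -0.97, just inside the limit, and -1.03 against the other control. Atp5g1 had the highest ratio of the 17 with Myod1 expression, 1.96, and Atp5g2 the lowest, 0.47. The highest ratio of the 17 was that of Atp5d, a subunit of the central stalk, with Pparg expression (0.75) and that of Atp5s with the knockdown (0.89). Sequence shared with other genes makes part of the values of the c subunit genes uncertain: 11.6% of the 50-base words of Atp5g1 and 14.8% of those of Atp5g2 also occur in transcripts of other genes. The same holds for the other nuclear subunits whose values are given here and that share at least 10% of their words, for 34.1% of the words of Ndufb6, 28.5% of those of Ndufa13, 27.9% of those of Cox7c, 25.9% of those of Cox5b, 19.2% of those of Uqcrb, 17.7% of those of Cox7a2l, 17.2% of those of Ndufa12, 14.7% of those of Cox4i1 and 10.5% of those of Cox5a.

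Across the 77 nuclear subunits without muscle isoforms, the log2 ratio with Setdb1 knockdown had a Spearman correlation of -0.375 with transcript length and 0.0462 with GC content, which describes 77 genes of 1 pair of libraries that share depth and preparation. Over the 12679 genes with both properties known, these values were -0.253 and 0.395. With Myod1 expression the values were -0.150 and -0.170 for the 77 and -0.261 and 0.218 for all genes, and between the controls 0.314 and -0.327 against -0.0988 and -0.266. Ndufa1, Uqcr11 and Cox7c, with longest transcripts of 419, 605 and 709 bases, were over the limit with the knockdown, and Atp5b, with 1916, stood below 0, but Ndufb2, with 4371, was over the limit as well.

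The 3 muscle isoforms of complex IV were near 0 in the control libraries and present with Myod1 expression. Cox8b (GRCm38 chr7:140898945-140900446, minus strand) stood at 163 FPKM with Myod1 expression, from 922 reads, at 0.145 with Pparg expression, from 1 read, and had no read in the 3 other libraries. Against a floor of 3 reads in its control library, it was at least 319-fold higher with Myod1 expression. Cox6a2 (chr7:128205435-128206387, minus strand) stood at 136 FPKM with Myod1 expression, 1.53 with Pparg expression, 0.180 with the empty expression vector, 2.62 with Setdb1 knockdown and 0.176 with the empty knockdown vector. Cox7a1 (chr7:30184144-30186078, plus strand) stood at 18.8 FPKM with Myod1 expression, 0.293 with Pparg expression, 0.915 with the empty expression vector, 0.303 with Setdb1 knockdown and 0.894 with the empty knockdown vector, so its 4 other libraries lay below 1 FPKM. The log2 ratios with Myod1 expression were 7.36 for Cox8b, 6.86 for Cox6a2 and 3.37 for Cox7a1, and for genes this scarce in the control they depend on the added 1 FPKM.

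As a part of its isoform pair, Cox8b supplied 28.5% (95% Wilson interval 27.1 to 30.05) of the summed FPKM of Cox8b and Cox8a with Myod1 expression, and Cox6a2 supplied 15.98% (15.2 to 16.7) of that of Cox6a2 and Cox6a1. Cox7a1 supplied 5.01% (4.31 to 5.82) of that of Cox7a1 and Cox7a2. The ubiquitous partner was therefore the more abundant of each pair in every library, the Myod1 expression library included. The partners did not stand lower beside the muscle isoforms: with Myod1 expression Cox8a stood at 408 FPKM against 291 in its control, Cox6a1 at 714 against 429 and Cox7a2 at 356 against 133. Cox6a1 was higher still with Pparg expression, at 749.6 FPKM.

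**Figure D2:**
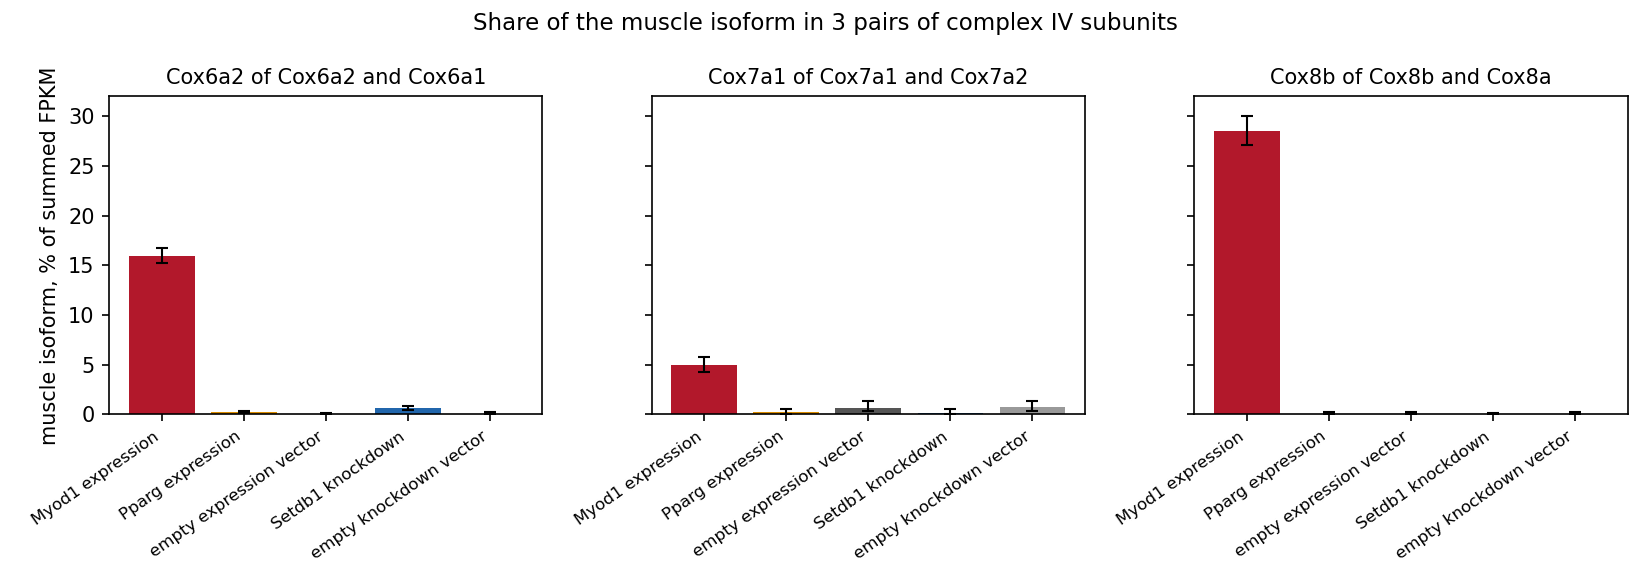
Share of the muscle isoform in the summed FPKM of each of 3 complex IV isoform pairs (vertical axis, percent) in the 5 libraries, 1 bar per library; error bars are 95% Wilson intervals on reads and cover counting error only. The bar for Myod1 expression stands at 15.98% for Cox6a2, 5.01% for Cox7a1 and 28.5% for Cox8b, and all other bars stay below 1%.

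Outside the Myod1 expression library, Cox6a2 was the muscle isoform that differed between libraries. With Setdb1 knockdown it had 33 reads, or 2.62 FPKM (1.87 to 3.68), against 2 reads, or 0.176 FPKM (0.0482 to 0.641), in its control, a log2 ratio of 1.62. With Pparg expression it had 20 reads (1.53 FPKM, 0.993 to 2.37) against 2, a log2 ratio of 1.10. In both cases the counting intervals of treated and control library do not overlap, yet Cox6a2 made up only 0.604% and 0.204% of its pair. Of the 6 muscle markers, Desmin stood at 13.6 FPKM with Setdb1 knockdown and at 12.9 with Pparg expression, against 4.75 and 6.20 in the controls, while Myog was at 0 in these 4 libraries. Cox7a1 had 3 reads in each of the Pparg expression and Setdb1 knockdown libraries and 8 in each control.

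The other paralogues of complex IV examined were near 0 in all libraries, except Cox7a2l. Cox4i2 and Ndufa4l2, isoforms known for induction in low oxygen, and Cox6b2, Cox7b2 and Cox8c, known from testis, stayed at or below 6 reads everywhere, with 0 reads for Cox7b2 and Cox8c. Cox7a2l, a relative of Cox7a2 that joins complexes III and IV into supercomplexes, was abundant and supplied 47.8% of the summed FPKM of that pair with Myod1 expression, 48.5% with Pparg expression, 43.9% with the empty expression vector, 56.6% with Setdb1 knockdown and 48.5% with the empty knockdown vector. It stood at 223 FPKM with the knockdown against 120.4 in its control, a log2 ratio of 0.88, and 1.09 against the other control.

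The sequence before the start of 2 muscle isoforms and their ubiquitous partners is shown because MYOD1 is known to bind the E-box, CANNTG, of muscle promoters. The windows are the 250 bases before the RefSeq start (GRCm38.p6, given 5′ to 3′ on the gene's strand), and capitals mark every CANNTG. The window of Cox6a2 was not in the table used.
Cox8b, chr7:140900447-140900696, minus strand: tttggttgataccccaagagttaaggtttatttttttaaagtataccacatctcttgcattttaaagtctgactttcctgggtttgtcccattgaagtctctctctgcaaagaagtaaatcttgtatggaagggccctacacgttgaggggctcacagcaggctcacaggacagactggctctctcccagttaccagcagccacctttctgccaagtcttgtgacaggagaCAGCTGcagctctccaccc
Cox8a, chr19:7217617-7217866, minus strand: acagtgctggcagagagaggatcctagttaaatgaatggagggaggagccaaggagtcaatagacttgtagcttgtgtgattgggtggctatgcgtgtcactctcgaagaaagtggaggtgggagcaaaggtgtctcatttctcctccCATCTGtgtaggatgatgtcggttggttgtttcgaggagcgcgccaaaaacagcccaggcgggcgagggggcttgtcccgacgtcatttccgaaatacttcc
Cox7a1, chr7:30183921-30184170, plus strand: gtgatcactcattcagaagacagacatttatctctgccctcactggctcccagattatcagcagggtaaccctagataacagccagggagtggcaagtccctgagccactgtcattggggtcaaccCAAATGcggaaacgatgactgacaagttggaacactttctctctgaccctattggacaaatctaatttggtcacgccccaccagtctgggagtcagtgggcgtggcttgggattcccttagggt
Cox7a2, chr9:79759854-79760103, minus strand: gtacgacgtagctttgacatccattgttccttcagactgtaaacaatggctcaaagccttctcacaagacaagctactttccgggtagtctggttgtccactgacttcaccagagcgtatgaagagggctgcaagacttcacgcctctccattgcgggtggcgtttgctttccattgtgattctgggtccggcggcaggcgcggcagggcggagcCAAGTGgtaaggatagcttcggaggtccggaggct

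Each of these 4 windows holds 1 E-box, and the window of Cox6a1, the third ubiquitous partner, holds 0. The E-box of Cox8b reads CAGCTG and lies 19 bases before the start. The palindrome CANNTG occurs in 60.6% of the 71 windows found for 66 of the nuclear subunits and in 66.2% of all 32851 windows of that length, and CAGCTG, a subset of it, in 8.45% and 13.001%. GCATGCG, the core of the NRF1 motif, was found on either strand in 12.7% of the subunit windows (Atp5g2, Atp5j, Atp5k, Atp5l, Cox6a1, Ndufa11, Ndufa6, Ndufa8 and Sdhb) and in 3.02% of all windows. The ETS motif CCGGAAG, on either strand, was found in 16.9% and 6.91%. A match is a description of the letters and not a bound site.

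The 13 mRNAs of the mitochondrial genome are processed from long transcripts of both strands, all but mt-Nd6 from the same strand. Their values carry a limit that differs by gene, since a stretch of nuclear DNA on chromosome 1 (GRCm38, between 24611535 and 24616197, minus strand) holds copies of 7 of them annotated as pseudogenes. The copies of mt-Co2, mt-Atp6, mt-Co3, mt-Nd4l and mt-Nd4 were identical over all bases compared (681 of 681, 678 of 678, 783 of 783, 294 of 294 and 876 of 876), that of mt-Nd3 over 344 of 345 and that of mt-Co1 over 486 of 492. The start of mt-Nd3 and of its copy Gm28438 is shown with the differing base, at position 3 of the gene, in capitals.
mt-Nd3, chrM:9459-9518, plus strand: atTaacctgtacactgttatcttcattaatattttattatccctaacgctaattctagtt
Gm28438, chr1:24613060-24613119, minus strand: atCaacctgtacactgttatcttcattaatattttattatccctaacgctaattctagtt

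A read from such a stretch could come from either place, and the treatment of such reads in counting is not given in the sources used here. At least 90% of the 50-base words of mt-Co2, mt-Co3, mt-Atp6, mt-Nd4l and mt-Nd3 occur in transcripts of another gene, 62.2% of those of mt-Nd4, 51.1% of those of mt-Co1, 8.19% of those of mt-Nd2, 7.61% of those of mt-Nd5 and none of those of mt-Nd1, mt-Cytb, mt-Nd6 and mt-Atp8. The 5 genes copied at 90% or more are reported as uncertain. The remaining 8 stood together in each comparison: all 8 had a ratio above 0 with Myod1 expression (median 0.58, none past the limit), all 8 below 0 with Pparg expression (median -0.67, with 1 at least 2-fold lower) and all 8 below 0 with Setdb1 knockdown (median -1.43, with 6 at least 2-fold lower against both controls). Between the controls their median was 0.06, with 1 gene, mt-Atp8, past the limit on 9 against 25 reads. The directions of small ratios depend on the scaling and the control: after division by the summed FPKM 6 of the 8 stayed above 0 with Myod1 expression, mt-Cytb standing at -0.09 and mt-Atp8 at -0.12, and against the other control library 7 of the 8 were below 0 with Pparg expression, mt-Atp8 standing at 0.62.

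**Figure D3:**
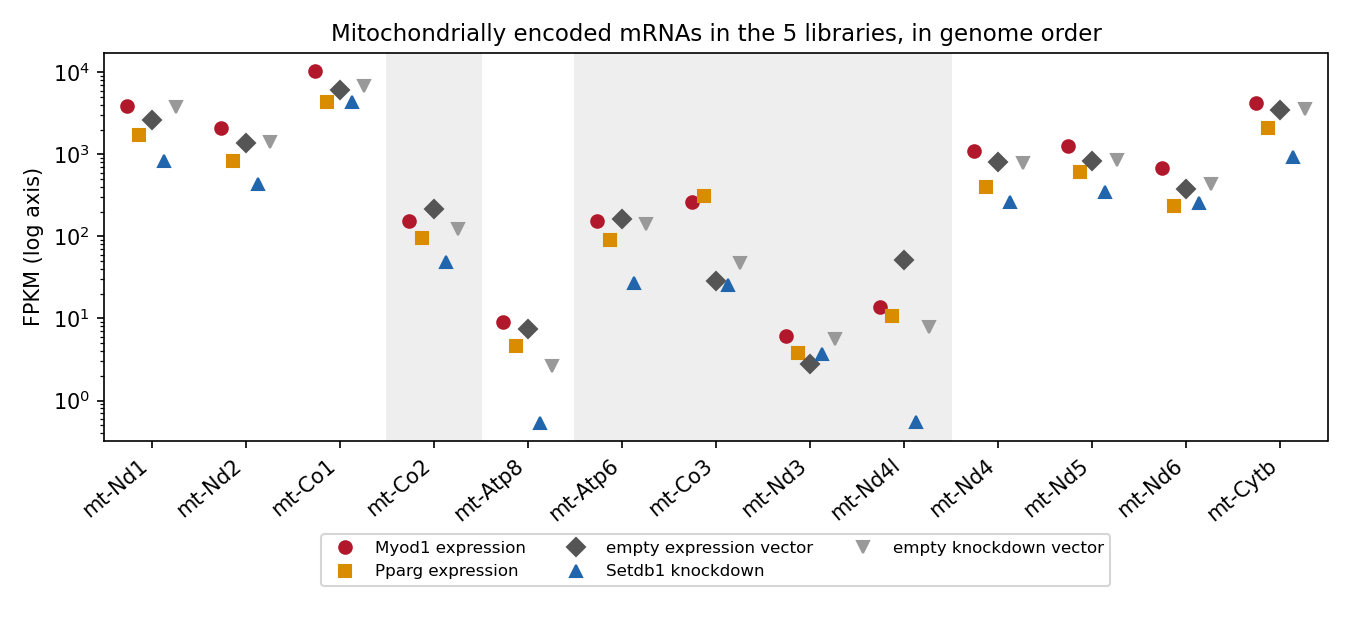
FPKM on a log axis of the 13 mitochondrially encoded mRNAs in the 5 libraries, in genome order, 1 symbol per library; grey bands mark the 5 genes with at least 90% of their 50-base words in transcripts of other genes. Outside the bands the Setdb1 knockdown triangles lie lowest or next to lowest for every gene, while mt-Co3 is the gene at which the expression libraries, at 264 and 309 FPKM, stand apart from the 3 others.

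Among the complex I genes, mt-Nd1 stood at 3842 FPKM with Myod1 expression, 1703 with Pparg expression, 2648 with the empty expression vector, 837 with Setdb1 knockdown and 3741 with the empty knockdown vector. Its log2 ratio with Setdb1 knockdown was -2.16, the lowest among the 8 less copied genes. Against the other control it was -1.66, and mt-Cytb (-1.90) and mt-Atp8 (-2.47, from few reads) were lower. mt-Nd5, the largest of the mitochondrially encoded proteins, stood at 1275 FPKM with Myod1 expression, 616 with Pparg expression, 824 with the empty expression vector, 348 with Setdb1 knockdown and 857 with the empty knockdown vector, with log2 ratios of 0.63 for Myod1 expression, -0.42 for Pparg expression and -1.30 for Setdb1 knockdown. mt-Nd2 followed with 0.63 for Myod1 expression, -0.70 for Pparg expression and -1.72 for Setdb1 knockdown, and mt-Nd4 with 0.43 for Myod1 expression, -1.02 for Pparg expression and -1.56 for Setdb1 knockdown, so that mt-Nd4 was the 1 less copied gene past the limit with Pparg expression; against the other control it stood at -0.97, inside the limit. mt-Nd6, the gene on the opposite strand, stood at 687 FPKM with Myod1 expression, 232 with Pparg expression, 381 with the empty expression vector, 254 with Setdb1 knockdown and 430.4 with the empty knockdown vector. Its knockdown ratio of -0.76 was nearer 0 than those of mt-Nd1, mt-Nd2, mt-Nd4 and mt-Nd5, and since strand-specific counting is not stated in the sources used here, RNA antisense to mt-Nd6 cannot be told apart from its mRNA.

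The complex III gene mt-Cytb, for cytochrome b, stood at 4285 FPKM with Myod1 expression, 2100.1 with Pparg expression, 3479 with the empty expression vector, 934 with Setdb1 knockdown and 3568 with the empty knockdown vector. The Setdb1 knockdown library was the lowest by far, at a log2 ratio of -1.93, with 0.30 for Myod1 expression and -0.73 for Pparg expression. mt-Co1, the catalytic subunit of complex IV, was the most abundant member in every library, at 10500.2 FPKM with Myod1 expression, 4387 with Pparg expression, 6170.0 with the empty expression vector, 4379 with Setdb1 knockdown and 6806 with the empty knockdown vector. Its knockdown ratio of -0.64 did not reach the limit, so the mRNAs of 1 genome differed among themselves in this library, from -0.64 for mt-Co1 to -2.16 for mt-Nd1. mt-Atp8, a small complex V subunit, rested on 2 reads with Setdb1 knockdown, 9 in its control, and 29, 18 and 25 with Myod1 expression, Pparg expression and the empty expression vector.

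Of the copied genes, mt-Co3 of complex IV was the only one of the 13 at least 2-fold higher with Myod1 or Pparg expression. It stood at 264 FPKM with Myod1 expression, 309 with Pparg expression, 28.5 with the empty expression vector, 25.4 with Setdb1 knockdown and 48.1 with the empty knockdown vector, with both expression libraries above the 3 others and log2 ratios of 3.17 for Myod1 expression and 3.39 for Pparg expression (2.43 and 2.66 against the other control). Its copy Gm28437, identical over 783 bases, stood at 134 FPKM with Myod1 expression, 33.0 with Pparg expression, 31.8 with the empty expression vector, 26.6 with Setdb1 knockdown and 64.7 with the empty knockdown vector. Gene and copy together gave log2 ratios of 2.70 for Myod1 expression and 2.48 for Pparg expression. Their sum was 60.3 FPKM with the empty expression vector, where mt-Co1 stood at 6170.0. Reads that fit both places may be missing from the sum, so it cannot check the ratios of mt-Co3. Its neighbours in the genome are mt-Atp6 and mt-Nd3, both copied as well. With Myod1 and with Pparg expression mt-Atp6 stood at -0.10 and -0.86 (0.10 and -0.66 against the other control), and mt-Nd3 at 0.88 and 0.32 (0.08 and -0.49). mt-Co2 stood at -0.46 and -1.18 (0.34 and -0.38).

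mt-Nd4l had the widest spread, at 13.7 FPKM with Myod1 expression, 10.7 with Pparg expression, 51.1 with the empty expression vector, 0.546 with Setdb1 knockdown and 7.85 with the empty knockdown vector, the last but one from 3 reads. It differed by -2.56 between the controls, so its ratios of -1.83 for Myod1 expression and -2.15 for Pparg expression turn to 0.73 and 0.40 against the other control library. mt-Nd3 stood between 2.81 and 6.03 FPKM, while its copy Gm28438 stood between 61.4 and 127 FPKM in the same libraries. Here the deposited table gives the nuclear copy many times the level of the mitochondrial gene. For mt-Nd3 and Gm28438 together the log2 ratios were 0.11 for Myod1 expression, -0.88 for Pparg expression and -0.96 for Setdb1 knockdown.

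Base composition moved with the mitochondrial result in the knockdown arm. The 13 genes hold between 31.9% and 41.1% GC, and the 971 other genes compared in that range had a median log2 ratio of -0.52 with Setdb1 knockdown, with 20.6% of them at least 2-fold lower, against -0.23 with Myod1 expression and -0.16 with Pparg expression. The median of all genes in the same of 10 bins of GC content was then subtracted, an alternative chosen after the data were seen. After this the median of the 13 with Setdb1 knockdown was -0.80. At least 2-fold lower were 6 of 13, beside 8.90% of all genes. The ribosomal RNAs of mitochondria differed from each other in that library: mt-Rnr1, the small one, had 3692 reads with Setdb1 knockdown and 3795 in its control, a log2 ratio of -0.19 in FPKM, and mt-Rnr2, the large one, 5476 and 9746, a log2 ratio of -0.97. How much ribosomal RNA the library preparation kept is not given in the sources used here.

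The balance between the genomes can be read from the reads they took up. With Myod1 expression the 13 mitochondrial mRNAs took 2.72% of all reads and the 86 nuclear genes 2.70%. With the empty expression vector these shares were 2.01% and 1.41%, and with the empty knockdown vector 2.35% and 1.38%. They were 1.52% and 2.13% with Pparg expression, and 1.10% and 1.51% with Setdb1 knockdown. Both controls thus held more mitochondrial than nuclear respiratory chain reads, the Pparg expression and Setdb1 knockdown libraries held more nuclear ones, and the Myod1 expression library was nearly even, with Wilson intervals of 2.71 to 2.73 and 2.69 to 2.71. This balance is one of reads and differs per length: of the summed FPKM the mitochondrial mRNAs took 3.63% and the nuclear genes 3.499% with Pparg expression, 5.81% and 4.23% with Myod1 expression, and 2.31% and 2.56% with Setdb1 knockdown. In the controls these shares were 5.05% and 2.34% with the empty expression vector and 5.81% and 2.21% with the empty knockdown vector. Without the 5 copied genes the mitochondrial shares of reads were 2.68% with Myod1 expression, 1.48% with Pparg expression, 1.98% with the empty expression vector, 1.09% with Setdb1 knockdown and 2.32% with the empty knockdown vector. Reads of copied stretches may be missing from all these mitochondrial totals, since their treatment in counting is not given. Which genome held more reads can therefore depend on that treatment.

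**Figure D4:**
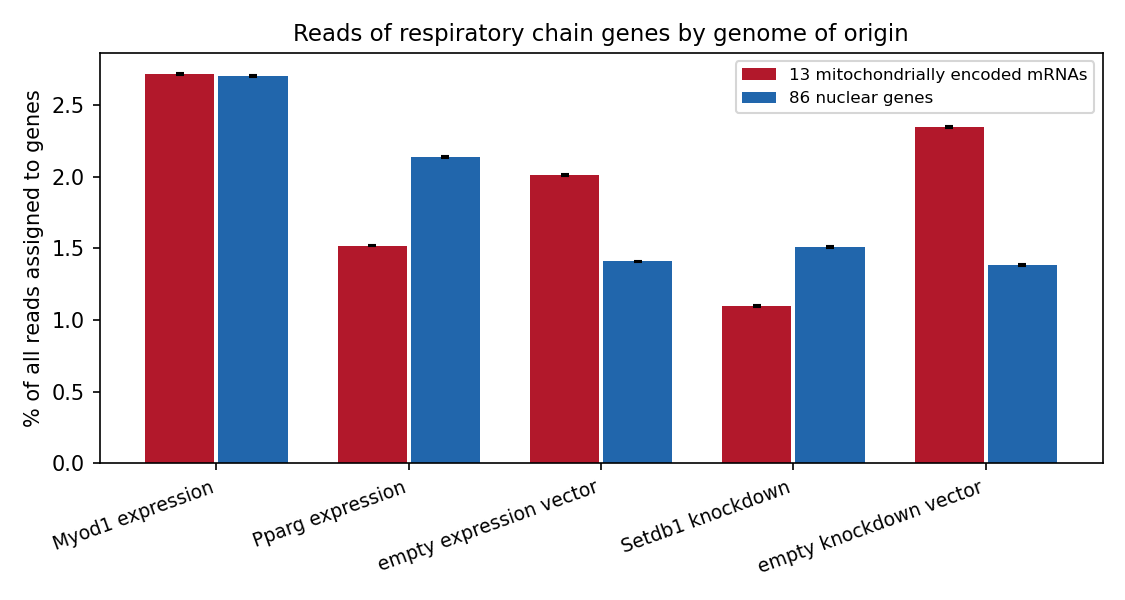
Share of all reads assigned to genes (vertical axis, percent) that fell on the 13 mitochondrially encoded mRNAs and on the 86 nuclear respiratory chain genes in each of the 5 libraries; error bars are 95% Wilson intervals, which cover counting error only. The mitochondrial bar is taller in both control libraries and shorter with Pparg expression and Setdb1 knockdown, at 1.52% against 2.13% and 1.10% against 1.51%.

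In both pairs of subunits compared across the genomes, the mitochondrial mRNA was the more abundant per length in every library. In complex III the FPKM of mt-Cytb over that of Cyc1 was 7.41, 7.47 and 6.62 in the Myod1 expression, Pparg expression and Setdb1 knockdown libraries and 17.5 and 17.7 with the empty expression and empty knockdown vectors. In complex IV mt-Co1 over Cox4i1 was 13.7, 8.72 and 14.2 in the same treated libraries, against 21.9 and 29.6 with the empty expression and empty knockdown vectors. Both ratios were lower in each treated library than in both control libraries.

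Lists of genes that act on the respiratory chain from outside its complexes had lower medians with Myod1 expression than its nuclear subunits. Their counts stand beside 14% of all genes at least 2-fold higher and 7.55% lower with Myod1 expression, 4.22% and 2.3% with Pparg expression, and 9.34% and 10.3% with Setdb1 knockdown. Perm1, Ppara, Ckmt2 and Ucp2 passed the filter only through the Myod1 expression library and Cox20 only through the Setdb1 knockdown library, so each had to be high there. Of 10 regulators of mitochondrial biogenesis compared, 3 were at least 2-fold higher with Myod1 expression: Perm1, a muscle regulator induced by estrogen-related receptors (3.67), Esrra, the estrogen-related receptor alpha (1.71, from 40.02 to 133 FPKM), and Ppara, a receptor of fatty acid oxidation (1.02). The median of the 10 was 0.08, and Ppard, a relative of Ppara, had the lowest ratios with Myod1 and with Pparg expression (-0.78 and -0.56). Ppargc1a, the coactivator PGC-1 alpha, stood at 11.3 FPKM with Myod1 expression, 11.3 with Pparg expression, 12.97 with the empty expression vector, 2.76 with Setdb1 knockdown and 10.6 with the empty knockdown vector, lower in the knockdown library at a log2 ratio of -1.63, and its relative Ppargc1b stood at -1.08, and at -0.75 against the other control. Nrf1 and Gabpa, activators of nuclear subunit genes, had ratios between -0.69 and -0.03 over the 3 comparisons, and none passed the limit.

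For the upkeep and transcription of mitochondrial DNA, 13 genes were compared, and 3 were at least 2-fold higher with Myod1 expression: Tefm, the elongation factor (1.47, and 0.97 against the other control), Tfb2m, an initiation factor (1.15), and Polrmt, the RNA polymerase (1.02). None passed the limit with Pparg expression or Setdb1 knockdown, where the medians were 0.09 and -0.23. Tfam, which packages and transcribes the genome, stood at 9.66 FPKM with Myod1 expression, 9.99 with Pparg expression, 9.30 with the empty expression vector, 8.29 with Setdb1 knockdown and 11.8 with the empty knockdown vector, a narrow range. Lrpprc, which stabilises mitochondrial mRNAs, had the lowest ratio of the list in the Myod1 expression and Setdb1 knockdown comparisons, -0.81 and -0.86, and Ssbp1, which binds single-stranded mitochondrial DNA, had it with Pparg expression, -0.46.

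Assembly factors also had medians above 0 with Myod1 expression. For complex I, 4 of 16 were at least 2-fold higher, at a median of 0.69, with Ndufaf8 the highest (1.47), and for complexes II to V 12 of 35, at a median of 0.63, with Tmem70, which serves the ATP synthase, the highest (1.99). With Pparg expression none of 16 and 3 of 35 were higher, Coa6, a complex IV copper factor, the highest at 1.11, which became 0.27 against the other control. With Setdb1 knockdown 1 of the 16 was higher and 2 were lower, with Ndufaf5, a complex I assembly enzyme, the lowest at -1.82, and 5 of the 35 were higher and 1 lower, Bcs1l, which inserts the iron-sulfur protein into complex III, at -1.24. For the complex I factors these shares, 6.25% and 12.5%, are near those of all genes. The highest ratios with the knockdown were those of Ndufaf1 (1.01, and 0.99 against the other control) and Sdhaf4 (1.40 and 1.48), factors for complexes I and II. The lowest were Acad9 with Myod1 expression (-0.33) and Ndufaf4 with Pparg expression (-0.23) for complex I, and Higd1a in both for complexes II to V (-0.19 and -0.70, which turn to 1.25 and 0.74 against the other control).

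Of 23 genes for electron carriers and nucleotide exchange, 6 were at least 2-fold higher, Ckmt2 and Ucp2 among them, and 1 was lower with Myod1 expression, at a median of 0.63. The 6 included Ckmt2, the mitochondrial creatine kinase of striated muscle (18.8 FPKM from 439 reads against 1 read in the control), Coq9, which takes part in ubiquinone synthesis (2.23), Cycs, the somatic cytochrome c (1.43), and Slc25a4, the adenine nucleotide translocator of muscle and heart (1.20). Gpd2, the glycerophosphate dehydrogenase that feeds electrons to ubiquinone, was the lower one (-1.24). With Pparg expression Etfb (1.20), Etfdh (1.09), which bring electrons from fatty acid oxidation, and Coq9 (1.08) were higher. With Setdb1 knockdown the median of the 23 was -0.10 and 9 stood above 0, with Coq9 higher (1.04, and 0.90 against the other control) and Vdac2, a channel of the outer membrane, lower (-1.04, and -0.76 against the other control).

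Of 25 genes of the tricarboxylic acid cycle and of pyruvate entry, 11 were at least 2-fold higher and 1 was lower with Myod1 expression, at a median of 0.80. Pdk2, a kinase that inhibits pyruvate dehydrogenase, had the highest ratio (4.33, 49.5 against 1.51 FPKM), followed by Mpc1, a subunit of the pyruvate carrier (2.40, and 1.59 against the other control). With Pparg expression Pcx, pyruvate carboxylase, was higher at 3.28 (80.7 against 7.43 FPKM) and Pdk2 at 1.29, while Pdk1, another such kinase, was lower at -1.30. Pdk1 was also the lower gene with Myod1 expression, at -1.01. It differed by -2.17 between the controls, and its ratios turn to 0.87 for Pparg expression and 1.16 for Myod1 expression against the other one. With Setdb1 knockdown the median of the 25 was -0.39: Dld (-1.88), the shared dehydrogenase subunit of the alpha-keto acid complexes, Mdh2 (-1.40), malate dehydrogenase, and Idh3a (-1.20), the NAD-dependent isocitrate dehydrogenase, were at least 2-fold lower, and Pdk2 was higher (1.39).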

How the data were processed

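The authors deposited 1 table of FPKM values for 54699 genes, and per the submitters' processing notes CASAVA, HISAT2, featureCounts 1.5.0-p3 and GRCm38 were used. Strand, multi-mapping, annotation release and RNA selection are not given in the sources used here. In each library 100% of the deposited FPKM times gene length were whole multiples of 1 step (tolerance 0.01 read), which gave back the reads. The divisor behind the FPKM was 0.859 to 1.10 times those reads and equalled median-of-ratios size factors, so the values were already scaled between libraries.

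Log2 ratios were computed as log2(FPKM + 1) of 1 library minus that of another, for genes with at least 1 FPKM in at least 1 library. With 1 library per group there was no test. Recovery of reads was tested on simulated data. Wilson intervals (95%) were computed on recovered reads (for isoform shares, converted to FPKM), and the floor for a count of 0 was 3 reads. Copied sequence was measured as 50-base words shared with other transcripts of GENCODE M21, and copies outside annotated transcripts were not searched. All 99 members had a transcript there, 29 of them shared at least 10% of words and 45 none. The members, the 7 gene lists with 152 entries (Fastkd4 was not matched in the table) and the comparisons were chosen with earlier results of these data known. Named genes are all mitochondrially encoded genes, the isoform pairs, the highest and lowest member of each complex and list in each treated comparison, the nuclear complex I extremes between the controls, and members past 2-fold, of which most with Myod1 expression, and those of the lists, are given as counts. Ndufs7, Ndufs1, Atp5b, mt-Tp, mt-Rnr1, mt-Rnr2, Nrf1, Gabpa and Tfam were added after their values were seen, for their role. Alternatives were pseudocount 0.1, other filters, 3 scalings, the other control, limits of 4-fold and 1.5-fold and, chosen after the data were seen, removal of copied members, of the muscle isoforms and of the GC trend. Python 3.11.15, numpy 2.4.6, pandas 2.3.3, scipy 1.17.1 and matplotlib 3.10.9 were used.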

Additional observations from a re-analysis of the deposited data

How the results depend on the processing

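No paired analysis was possible because each group has 1 library. Of the single-gene values under an alternative, 1407 stayed within their counting interval and the others moved further. Of these 2139 values of members 64 had the opposite sign, 7 with Myod1 expression, 5 with Pparg expression, 20 with Setdb1 knockdown and 32 between the controls. Only 2 of the 64 belong to ratios past 2-fold: mt-Nd4l against the other control stood at 0.73 for Myod1 expression and 0.40 for Pparg expression. The number of members past 2-fold (62 with Myod1 expression, 8 with Pparg expression, 18 with Setdb1 knockdown and 2 between the controls) became 8, 2, 3 and 1 at 4-fold, and 34, 44 and 8 at 1.5-fold for Pparg expression, Setdb1 knockdown and the controls. At 1.5-fold 79 were higher and 1 lower with Myod1 expression. Of all genes, 24.4% were higher and 19.3% lower at 1.5-fold with Myod1 expression, and 10.8% and 8.43% with Pparg expression. The shares were 21.8% and 21.9% with Setdb1 knockdown and 4.41% and 5.91% between the controls. At 4-fold they were 4.35% and 0.382% with Myod1 expression and 0.709% and 0.179% with Pparg expression. With Setdb1 knockdown they were 0.919% and 1.5%, and 0.14% each way between the controls. Without members copied at 10% or more, the number of members past 2-fold was 41, 3, 11 and 1, fewer genes being counted. Over all members, copied ones included, 3 passed 2-fold against both controls with Pparg expression.

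The median of the 13 mitochondrially encoded genes with Myod1 expression was 0.14 after division by the column sum, 0.35 scaled to the 75th percentile, 0.36 scaled to nuclear reads, 0.57 against the other control, 0.76 with the GC trend removed and 0.58 without the 5 copied genes. With Pparg expression it was -0.60 by column sum, -0.54 by nuclear reads, -0.63 against the other control, -0.54 with the GC trend removed and -0.67 without the copied genes. With Setdb1 knockdown it was -1.56 with pseudocount 0.1, -1.64 by column sum, -1.66 against the other control and -0.80 with the GC trend removed. Between the controls it was 0.11, 0.085 and 0.14 by column sum, 75th percentile and nuclear reads and -0.037 with the GC trend removed. The nuclear median was 1.02, 1.22 and 1.23 with Myod1 expression by column sum, 75th percentile and nuclear reads, 0.59 and 0.63 with Pparg expression by column sum and nuclear reads, 0.31 by 75th percentile and 0.30 against the other control with Setdb1 knockdown, and 0.0075 by nuclear reads between the controls.

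As a share of the summed FPKM the 13 genes took 5.81% with Myod1 expression, 3.63% with Pparg expression, 5.05% with the empty expression vector, 2.31% with Setdb1 knockdown and 5.81% with the empty knockdown vector. In that order they took 2.77%, 1.54%, 2.04%, 1.12% and 2.39% of reads of protein-coding genes, and without the copied genes 2.68%, 1.48%, 1.98%, 1.09% and 2.32% of all reads. By reads in place of FPKM, the Myod1 expression share of Cox7a1 was 2.90% and that of Cox8b 20.9%. With 1 added to each FPKM, Cox6a2 made 0.337% with Pparg expression, 0.273% with the empty expression vector and 0.433% with the empty knockdown vector. Cox7a1 then made 0.811%, 1.41%, 0.754% and 1.45% with Pparg expression, the empty expression vector, Setdb1 knockdown and the empty knockdown vector, and Cox8b 0.333%, 0.341%, 0.289% and 0.422%. For muscle isoforms outside the Myod1 expression library, depth limits the share, since they rest on at most 33 reads. The cause of these shifts was not tested.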

Other observations

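A list of 15 genes known to be induced by low oxygen differed between the 2 control libraries, with 9 of the 15 at least 2-fold lower with the empty knockdown vector than with the empty expression vector, none higher, beside 1.44% of all genes lower and 1.23% higher, and a median log2 ratio of -1.08. Ankrd37 of this list passed the filter only through the empty expression vector library, so it had to be high there. Bnip3, a mitophagy receptor, stood at 39.6 FPKM with Myod1 expression, 16.8 with Pparg expression, 55.3 with the empty expression vector, 7.28 with Setdb1 knockdown and 5.52 with the empty knockdown vector. Car9, a carbonic anhydrase, stood at 14.3 FPKM with the empty expression vector against 1.53 with the empty knockdown vector, and Vegfa, an angiogenic factor, at 23.6 against 4.33. With Myod1 expression the list median was -0.65 against its own control and 0.69 against the other control, with Pparg expression -0.87 and 0.22, and with Setdb1 knockdown 0.18 and -1.59. Against their own controls the list ranged from -2.52 for Ero1l to 2.47 for Egln3 with Myod1 expression, from -2.20 for Ero1l to 0.08 for Pfkfb4 with Pparg expression, and from -1.53 for Ldha to 1.76 for Ddit4 with Setdb1 knockdown. The sign of the list median differed with the control library used. Between those controls no nuclear respiratory chain gene passed 2-fold, and the isoforms Cox4i2 and Ndufa4l2 had at most 2 reads in either. Ldha, lactate dehydrogenase A, stood at 958 FPKM with Myod1 expression, 684 with Pparg expression, 1191 with the empty expression vector, 195 with Setdb1 knockdown and 565 with the empty knockdown vector.

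Among the tRNA genes of the mitochondrial genome, mt-Tp, encoded next to the control region, was listed at 815 FPKM (859 reads) with Myod1 expression, 207 (266 reads) with Pparg expression, 113 (124 reads) with the empty expression vector, 370.2 (459 reads) with Setdb1 knockdown and 184 (206 reads) with the empty knockdown vector. It lies on the strand opposite to most mRNAs, and without a statement on strand its reads cannot be assigned to that strand.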
